A study of Mus musculus with 8 samples.

Results

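The genes described here are those of local thyroid hormone metabolism and sensing: the deiodinases Dio1, Dio2 and Dio3, the transporter Slc16a10, the nuclear receptors Thra and Thrb, and the binding proteins Crym and Ttr. They were taken by symbol. Every mouse probe whose gene name in the array files was 1 of these 8 symbols was used, which gave 14 probes of the 55681 on the array, and 8 genes of the 19965 with a RefSeq mRNA probe. A gene with several probes was read by its main probe, the RefSeq mRNA probe of highest mean signal, and its other probes were read beside it. The thyroids came from female Balb/c mice of 8 weeks. In the exposed group, 4 mice had received 99mTcO4- (pertechnetate of the isotope technetium-99m, which thyrocytes take up as they take up iodide) so that the thyroid absorbed 30 Gy, and the thyroids were taken 24 hours later. The control group was 4 mice without the isotope, which the study's text describes as untreated and a legend as given saline. RNA of the whole gland was measured, 1 thyroid on each of 8 arrays, and the arrays are called Ct1 to Ct4 (control) and S539, S588, S589 and S590 (exposed). The comparison asks how these genes differed between irradiated and control glands.

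Deiodinases are selenoenzymes that remove an iodine from thyroid hormone. Dio1 and Dio2 convert the prohormone T4 to the active hormone T3, Dio1 being abundant in the thyroid, liver and kidney and Dio2 in brown fat, pituitary and brain, while Dio3 inactivates both hormones. Inside the cell T3 binds the receptors encoded by Thra and Thrb, which regulate transcription with or without the ligand. Hormone crosses the plasma membrane through transporters, among them the one encoded by Slc16a10 (Mct10), which also carries aromatic amino acids. Crym encodes a cytosolic T3-binding protein, and Ttr a plasma carrier made mainly by liver and choroid plexus.

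Dio1 was the member whose change passed the test, and it was read by 3 probes at separate places of its mRNA, so their sequences are shown. All lie on chromosome 4 in the mouse build mm9, at chr4:106979388-106979447, chr4:106964935-106964994 and chr4:106964052-106964088, and the third interval covers 37 of the 60 bases of its probe. Capitals mark a final TAG triplet.
Dio1 probe from transcript base 301: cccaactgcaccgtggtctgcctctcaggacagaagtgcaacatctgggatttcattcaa
Dio1 probe from transcript base 739: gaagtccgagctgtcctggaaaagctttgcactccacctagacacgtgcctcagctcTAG
Dio1 main probe, from transcript base 1340, first 30 bases: accatcttgaaatagattgcactaggaatc
Read in steps of 3 from its first base, the probe from base 739 held no other stop triplet before the TAG. The probe from base 301 held none in any of its 3 frames. The whole main probe held 1 or more in each of its 3 frames. No annotation of this build was used here, so exons and untranslated parts are not named.

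Signals are given as the log2 of the background-subtracted spot signal, quantile-normalized between arrays, so a difference of 1 is a doubling. Between 60.5% and 77.3% of the spots of an array were well above background, and no member spot was saturated or marked as an outlier. All arrays lay on 1 slide and in 1 scan, with the exposed samples in one row and the controls in the other. Slide position cannot be told apart from group. Every listed thyrocyte marker except Slc26a4 was well above background on all 8 arrays, and thyroglobulin (Tg) was bright in every sample, between 18.70 and 19.07. Most markers of calcitonin-producing C cells, parathyroid, skeletal muscle and adipocytes were also well above background on all 8 arrays, and the thymocyte gene Rag1 was at 11.96 in Ct1 and 10.64 in Ct2 against at most 5.45 elsewhere.

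By main probe, 1 of the 8 genes passed an adjusted p of 0.05 in limma with Benjamini-Hochberg adjustment over all probes. Of all 19965 genes read this way, 1.22% passed. Among the 14 member probes, 2 passed, both for Dio1 and both lower in exposed thyroids. Over all probes 0.781% passed in either direction, and 0.194% passed and were lower. The 4 exposed values lay wholly outside the 4 control values for 6 member probes of 4 genes (Dio1, Dio2, Thra and Crym), against 9.11% of all probes and, by main probe, 11.9% of all genes. An unadjusted p under 0.05 was reached by 8 of the 14 member probes and by 12.2% of all probes. The median log2 fold change of the member genes was -0.09, and that of all genes was -0.03.

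**Figure D1:**
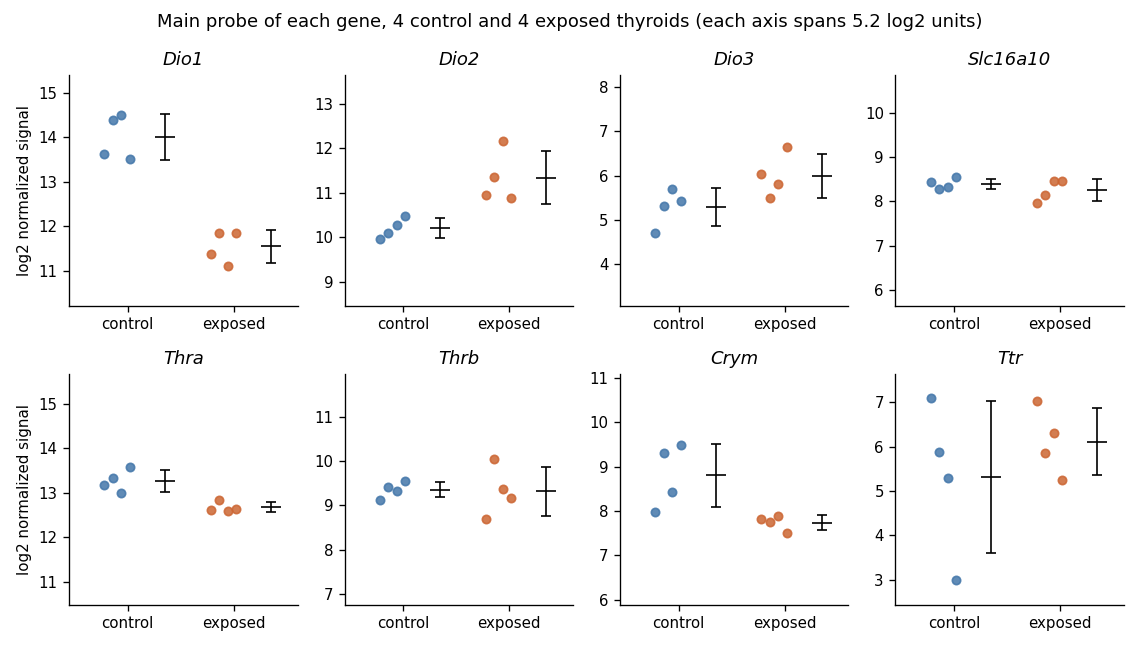
Log2 normalized signal of the main probe of each of the 8 genes (vertical axes, each spanning the same number of log2 units) in 4 control and 4 exposed thyroids. Points are single thyroids, and the bar beside them is the mean with the SD; Dio1 lies between 13.51 and 14.52 in controls and between 11.10 and 11.84 in exposed thyroids, Dio2 is higher in all exposed thyroids, and Thra and Crym are lower in all of them.

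Dio1, the deiodinase abundant in the thyroid itself, was strongly lower in exposed glands. Its main probe gave log2 signals of 13.62, 14.39, 14.52 and 13.51 in Ct1 to Ct4 and of 11.38, 11.84, 11.10 and 11.84 in S539, S588, S589 and S590. Every exposed thyroid lay below every control by more than the whole spread within either group. The mean went from 14.01 ± 0.52 (SD, n = 4) to 11.54 ± 0.37 (SD, n = 4), a fall of 5.52-fold (log2 fold change -2.46, SE 0.30, 95% confidence interval -3.15 to -1.78; limma adjusted p = 0.0153). In whole glands, fewer cells that express a gene and less of its RNA per cell cannot be told apart.

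The other Dio1 probes were lower as well. The probe from transcript base 739, sequence above, gave 10.81, 11.85, 11.93 and 10.93 in Ct1 to Ct4 and 9.11, 8.96, 8.90 and 9.52 in the exposed thyroids, with a log2 fold change of -2.26 (SE 0.31, limma adjusted p = 0.0232). The probe from base 301 gave 8.83, 9.95, 10.35 and 9.35 in Ct1 to Ct4 and 7.74, 8.39, 8.12 and 8.35 in the exposed thyroids. Its groups did not overlap either, but its log2 fold change of -1.47 (SE 0.34, 95% confidence interval -2.25 to -0.69) did not pass the limma test (adjusted p = 0.129). The intervals of the 3 probes overlapped, and a difference between probes was not tested. On all 3 probes Ct2 and Ct3 were the highest controls.

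The call on Dio1 depended on the number of arrays. In the 8 fits with 1 array left out, the main probe changed by -2.63 to -2.30 on the log2 scale, and the limma adjusted p rose to 0.0609 without Ct2, 0.0613 without S539, 0.0618 without S589 and 0.0575 without S590. The probe from base 739 had an adjusted p over 0.05 without Ct2 (0.0781), Ct3 (0.0581), S539 (0.0826), S588 (0.0731), S589 (0.085) or S590 (0.0622).

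Thyrocyte markers moved with Dio1 in part. Of the 14 on the list, 11 had a lower mean in exposed thyroids, with a median log2 fold change of -0.40, and 1 passed the limma test: Slc5a5, the sodium-iodide symporter, whose signals were 10.73, 11.92, 12.34 and 10.87 in Ct1 to Ct4 and 8.17, 8.28, 7.32 and 7.94 in the exposed thyroids. That is a log2 fold change of -3.53 (SE 0.41, adjusted p = 0.0137). Tg, the hormone precursor protein, differed by 0.04 (SE 0.13, limma adjusted p = 0.922). It was among the brightest probes, where quantile normalization sets the signal by rank, so a rise was limited in advance, though a fall was not. The mean of the thyrocyte list, each gene (Slc5a5 included) centred on its mean over the 8 arrays, was -0.06, 0.43, 0.62 and 0.05 in Ct1 to Ct4 and -0.32, -0.20, -0.26 and -0.26 in S539, S588, S589 and S590. These means were lower in all exposed thyroids than in any control, but that separation rested on Slc5a5, and without it the groups overlapped. By gene, the groups were apart for 3 of the 14, Slc5a5 among them, and not all in the same direction. Ct2 and Ct3, the controls highest in Dio1, were also highest in the list mean. The summed linear signal ranged from 508000 to 630000 in controls and from 482000 to 625000 in exposed thyroids. Most of it came from Tg, so it has the same limit and says little of the other genes. Slc26a4 was well above background on 5 arrays only. The part of the other thyrocyte genes in the Dio1 result was not tested.

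**Figure D2:**
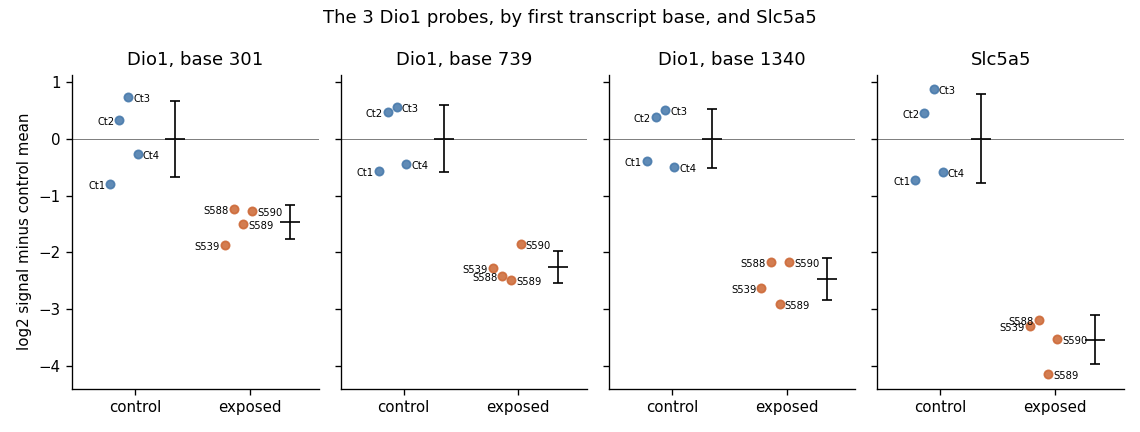
Log2 signal of the 3 Dio1 probes, named by their first transcript base, and of the Slc5a5 probe, each minus its own control mean (vertical axis, log2 units), in 4 control and 4 exposed thyroids named by array. Points are single thyroids and bars are mean and SD; all 4 panels have the exposed points below the control points, with mean differences of -1.47, -2.26 and -2.46 for Dio1 and -3.53 for Slc5a5.

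Dio2, the deiodinase that makes T3 inside the cell for local use, lay in the opposite direction. Its only probe (chromosome 12, mm9) gave 9.95, 10.10, 10.27 and 10.48 in Ct1 to Ct4 and 10.95, 11.37, 12.17 and 10.89 in S539, S588, S589 and S590. All exposed thyroids lay above all controls, S589 farthest. The mean was 10.20 ± 0.23 in controls and 11.34 ± 0.59 in exposed thyroids (SD, n = 4 each). That difference, 1.14 on the log2 scale (2.21-fold, SE 0.30, 95% confidence interval 0.46 to 1.83), did not pass the adjustment over all probes (limma adjusted p = 0.173). On the deposited values it was 1.07 (limma adjusted p = 0.0772).

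Markers of fat, a tissue in which Dio2 is known to be active, were read on the same arrays. Of the 7 white and brown adipocyte markers, 5 had a higher and 2 a lower mean in exposed thyroids, the median log2 fold change was 0.55, and none passed the limma test. Ucp1, the uncoupling protein of brown fat, was well above background on all 8 arrays, between 15.76 and 17.08, and the hormone gene Lep was not so on 5 of 8 arrays. The summed linear signal of the list was 209000 to 307000 in controls and 180000 to 535000 in exposed thyroids. The mean of the list, each gene centred on its mean over the 8 arrays, was -0.51, 0.05, -0.15 and 0.07 in Ct1 to Ct4 and 0.09, 0.29, 0.76 and -0.61 in S539, S588, S589 and S590. The array with the highest Dio2 signal, S589, also had the highest adipocyte mean. S590 had the lowest adipocyte mean of all 8 arrays and a Dio2 signal above all controls. Without S589 the log2 fold change of Dio2 was 0.87 (limma adjusted p = 0.215). The part of adipocyte RNA in the Dio2 values was not tested.

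Dio3, the inactivating deiodinase, was close to background. Its probe (chromosome 12, mm9) gave 4.70, 5.31, 5.71 and 5.44 in Ct1 to Ct4 and 6.04, 5.49, 5.80 and 6.64 in the exposed thyroids, and was well above background on 2 of 4 control and 4 of 4 exposed arrays. The groups overlapped, since S588 lay below Ct3. On the log2 scale Dio3 changed by 0.70 (SE 0.30, 95% confidence interval 0.002 to 1.40; limma adjusted p = 0.409), and on the deposited values the change was 0.39. Dio3os, the antisense transcript of the same locus, had 2 probes with log2 fold changes of 0.32 (SE 0.17, limma adjusted p = 0.502) and 0.77 (SE 0.29, limma adjusted p = 0.352), and the groups overlapped on both.

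Dio1 and Dio2 lay on opposite sides of their controls, and the difference of their log2 signals is given as a description, since it follows from both. Log2 Dio1 minus log2 Dio2 was 3.67, 4.28, 4.24 and 3.03 in Ct1 to Ct4 and 0.44, 0.48, -1.06 and 0.95 in the exposed thyroids. A probe's signal cannot be set against another's as a level, so only the change of this difference between groups, -3.61, can be read. For Dio1 minus Dio3 the change was -3.17, with Dio3 well above background on 2 of 4 control arrays, and it ran from -2.66 with normexp background correction to -3.54 with scaling to the 75th percentile.

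Dio1 and Slc5a5, both lower in exposed thyroids, were compared by a two-sided exact permutation test over the 70 assignments of 4 and 4 arrays, whose smallest p is 0.0286, with adjustment over 4 pairs of genes. By main probe, Dio1 fell by less than Slc5a5: Dio1 minus Slc5a5 went from 2.54 ± 0.30 to 3.61 ± 0.30 (SD, n = 4 each), a difference of 1.07 with the groups apart (exact p = 0.0286, adjusted p = 0.0381). Each gene was read by 1 probe here, and the Dio1 probes themselves ran from -1.47 to -2.46. A difference between genes thus cannot be told apart from a difference in probe response. The pair was chosen with the changes of both genes known. Its adjusted p was lowered by Dio1 minus Dio2 and Dio1 minus Dio3, which are in the same family of 4. Both had the same smallest exact p and follow from changes already given, so the adjusted p adds little to the exact p.

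**Figure D3:**
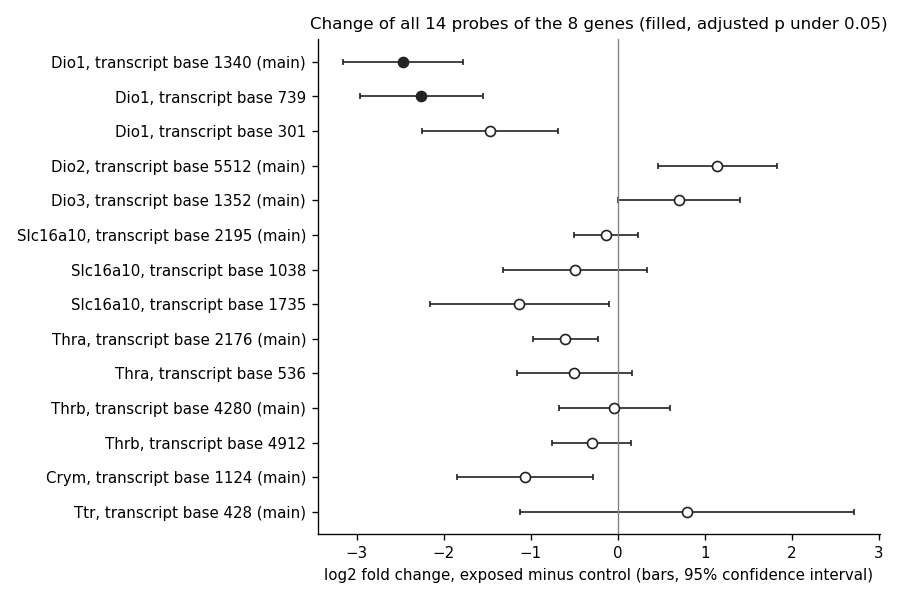
Log2 fold change (horizontal axis, exposed minus control) of all 14 probes of the 8 genes, labelled by gene and first transcript base. Bars are 95% confidence intervals and filled circles have a limma adjusted p under 0.05; the filled circles are the Dio1 probes at -2.46 and -2.26, and Dio2 and Dio3 lie to the right of 0.

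Slc16a10, the transporter, did not pass the test on any of its 3 probes (chromosome 10, mm9). The main probe gave 8.43, 8.29, 8.31 and 8.54 in Ct1 to Ct4 and 7.96, 8.15, 8.46 and 8.45 in the exposed thyroids, so the groups overlapped. Its log2 fold change was -0.14 (SE 0.16, 95% confidence interval -0.51 to 0.23; limma adjusted p = 0.748). The probe from transcript base 1038 changed by -0.49 (SE 0.36, limma adjusted p = 0.604). The probe from base 1735 changed by -1.13 (SE 0.44, limma adjusted p = 0.37), but it was well above background on 3 of 4 exposed arrays, and on the deposited values, which carry no background subtraction, the same probe changed by -0.41.

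Thra, the gene of the T3 receptor alpha and of a splice form that does not bind T3, was lower by a modest amount. The main probe (chromosome 11, mm9) gave 13.18, 13.34, 12.99 and 13.58 in Ct1 to Ct4 and 12.62, 12.84, 12.58 and 12.64 in the exposed thyroids. The groups were apart, with Ct3 and S588 lying nearest to each other. This change of -0.60 on the log2 scale (1.52-fold, SE 0.16, 95% confidence interval -0.98 to -0.23) did not pass the adjustment (limma adjusted p = 0.191). The other Thra probe, from transcript base 536, has 60 bases over a genomic span of 807 bases and so crosses a splice junction. It changed by -0.50 (SE 0.29, limma adjusted p = 0.517), with 7.99 to 9.13 in controls and 7.71 to 8.53 in exposed thyroids. Nr1d1, the clock gene whose transcript overlaps the Thra locus on the opposite strand, changed by -0.39 (SE 0.30, limma adjusted p = 0.62).

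Thrb, the receptor beta gene, had nearly equal means in the groups. Its main probe (chromosome 14, mm9) gave 9.13, 9.41, 9.34 and 9.54 in Ct1 to Ct4 and 8.70, 10.03, 9.36 and 9.16 in the exposed thyroids. The log2 fold change was -0.04 (SE 0.28, 95% confidence interval -0.68 to 0.60; limma adjusted p = 0.966), so a change of up to 0.60 in either direction lies within the interval. Its sign turned under 6 of 17 other settings. The second probe changed by -0.30 (SE 0.20, limma adjusted p = 0.565). The change of Thra minus Thrb between groups was -0.56, from 3.92 ± 0.18 to 3.36 ± 0.47 (SD, n = 4 each), and the groups overlapped (exact p = 0.0571, adjusted p = 0.0571). Without S539 it was -0.75, with an exact adjusted p of 0.0286, the smallest that 35 assignments allow. Leaving out any other array gave an exact adjusted p between 0.0571 and 0.114, and the change was -0.38 without S588.

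Crym, the cytosolic T3-binding protein also known as mu-crystallin, was lower and less variable in exposed thyroids. Its probe (chromosome 7, mm9) gave 7.98, 9.30, 8.43 and 9.49 in Ct1 to Ct4 and 7.81, 7.75, 7.88 and 7.49 in the exposed thyroids. The groups were narrowly apart, at Ct1 and S589. The mean went from 8.80 ± 0.71 to 7.73 ± 0.17 (SD, n = 4 each). On the log2 scale Crym thus changed by -1.07 (2.09-fold, SE 0.34, 95% confidence interval -1.85 to -0.28), which did not pass the adjustment (limma adjusted p = 0.269).

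Skeletal muscle, which expresses Crym, was present in the samples in unequal amounts. All 8 muscle markers had a lower mean in exposed thyroids, with a median log2 fold change of -1.01, and none passed the limma test. Their summed linear signal was 868000 to 1940000 in controls and 476000 to 1520000 in exposed thyroids, and all were well above background on every array. The mean of the list was 0.79, 0.20, -0.33 and 1.24 in Ct1 to Ct4 and -1.53, 0.14, -1.23 and 0.71 in S539, S588, S589 and S590. Ct4 had the highest muscle mean and the highest Crym signal. The orders differed in places: S590 had the third highest muscle mean and the lowest Crym signal, and Ct3 had a lower muscle mean than S588 and a higher Crym signal. The part of muscle RNA in the Crym values was not tested.

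**Figure D4:**
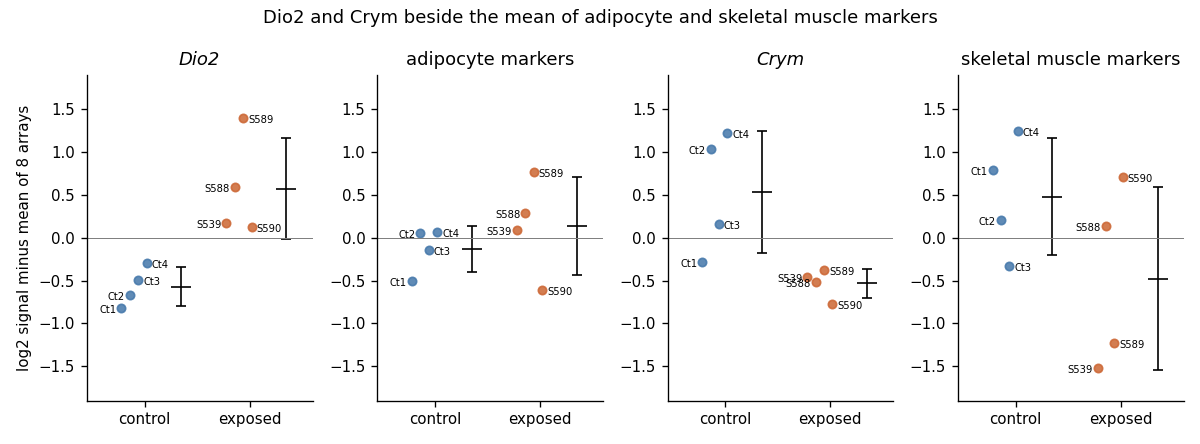
Log2 signal of Dio2 and Crym and the mean of the adipocyte and skeletal muscle marker lists, each minus its mean over the 8 arrays (vertical axes, log2 units), in 4 control and 4 exposed thyroids named by array. Points are single thyroids and bars are mean and SD. S589 has the highest adipocyte mean and Dio2 signal, and Ct4 the highest muscle mean and Crym signal. S590 has the lowest adipocyte mean (-0.61) with Dio2 above all controls, and the third highest muscle mean (0.71) with the lowest Crym signal.

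Ttr, the plasma carrier transthyretin, was near background and variable. Its probe (chromosome 18, mm9) gave 7.09, 5.88, 5.30 and 3.00 in Ct1 to Ct4 and 7.03, 5.86, 6.32 and 5.24 in the exposed thyroids, and was well above background on 2 of 4 control arrays and all 4 exposed arrays. The log2 fold change was 0.80 (SE 0.83, 95% confidence interval -1.12 to 2.71; limma adjusted p = 0.715), and without Ct4 it was 0.02. Of the hepatocyte and choroid plexus markers, which are cells known to make transthyretin, 3 of 7 had a higher and 4 a lower mean in exposed thyroids, with summed linear signals of 15700 to 23800 in controls and 18000 to 21300 in exposed thyroids. Apoa1, an apolipoprotein of the liver, was well above background on none of the 8 arrays.

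The remaining cell type lists held no gene that passed the limma test. The mean was lower in exposed thyroids for 5 of 5 fibroblast, 5 of 6 macrophage, 5 of 7 thymocyte, 2 of 5 endothelium, 2 of 4 parathyroid and 0 of 4 C cell markers. The list medians on the log2 scale were -0.46 for fibroblasts, -0.42 for macrophages and 0.37 for C cells. Among thymocytes the median was -1.81, with the 2 controls high in Rag1 among the 4. Dio1 changed by -2.59 without Ct1 and by -2.34 without Ct2, but each of these fits kept the other control high in Rag1. The part of thymocyte RNA in the Dio1 values was not tested.

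Among the other genes of the pathway, none passed the test. The 7 lists held 91 genes, of which 84 had a probe (Dio3os, with no RefSeq mRNA probe, was read by its brightest), and 0 of 84 had a limma adjusted p under 0.05, while 9 had an unadjusted p under 0.05, which 14.9% of all genes had. The groups did not overlap for 9 of the 84, beside the 11.9% of all genes. The median log2 fold change was 0.03, beside -0.03 over all genes. By the rule for named genes, the largest rise and the largest fall are given for the lists among genes well above background on all arrays of at least 1 group; for the transporters only the rise is given.

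The genes that act on the hormone outside the nucleus stayed within these limits. Of 12 other transporters, 6 had a higher and 6 a lower mean in exposed thyroids. Slc7a5, the light chain of an amino acid exchanger that also carries thyroid hormone, changed by 0.43 (SE 0.21, limma adjusted p = 0.466), the largest rise of that list among genes well above background. Of 8 carriers and conjugating enzymes with a probe, 5 were not well above background on all arrays of either group, thyroxine-binding globulin (Serpina7) and albumin (Alb) among them. Sult1a1, a phenol sulfotransferase, had the lowest p of that list: 12.27 in controls and 13.19 in exposed thyroids, a log2 fold change of 0.92 (SE 0.18) with the groups apart (limma adjusted p = 0.0808). Aldh1a1, a retinaldehyde dehydrogenase that binds thyroid hormone, changed by -0.43 (SE 0.36, limma adjusted p = 0.645).

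Deiodinases are made by reading a UGA codon as selenocysteine, so that machinery and the other selenoproteins were read too. Of 12 genes of selenocysteine insertion and deiodinase turnover, 5 had a higher and 7 a lower mean. Usp33, which removes ubiquitin from Dio2, changed by 0.32 (SE 0.15, limma adjusted p = 0.444), and Sephs1, a selenophosphate synthetase homologue, by -0.53 (SE 0.18, limma adjusted p = 0.308). Of the 15 other selenoproteins with a probe, 6 had a higher and 9 a lower mean, and the median log2 fold change was -0.06. Sepx1, a methionine sulfoxide reductase, changed by 0.45 (SE 0.19, limma adjusted p = 0.407), and Gpx2, a glutathione peroxidase, by -0.71 (SE 0.31, limma adjusted p = 0.414). The change of -0.71 was thus the largest fall of that list, beside -2.46 for Dio1, itself a selenoprotein transcript.

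On the nuclear side, 12 of 19 receptor partners and coregulators had a higher and 7 a lower mean. Med1, the mediator subunit that binds liganded receptors, changed by 0.44 (SE 0.16, limma adjusted p = 0.335), and Tbl1xr1, a subunit of the NCoR corepressor complex, by -0.72 (SE 0.16, limma adjusted p = 0.106), both with the groups apart. Of 16 genes known to respond to T3 in other tissues, 10 had a higher and 6 a lower mean, with a median of 0.12. Pck1, a gluconeogenic enzyme also made in fat, changed by 0.97 (SE 0.46, limma adjusted p = 0.445), and Hr, a corepressor induced by T3 in the brain, by -0.65 (SE 0.30, limma adjusted p = 0.431). Klf9, a transcription factor that T3 induces directly, had the lowest p of the list and was chosen after its values were seen: its log2 fold change was 0.55 (SE 0.12, limma adjusted p = 0.115).

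**Figure D5:**
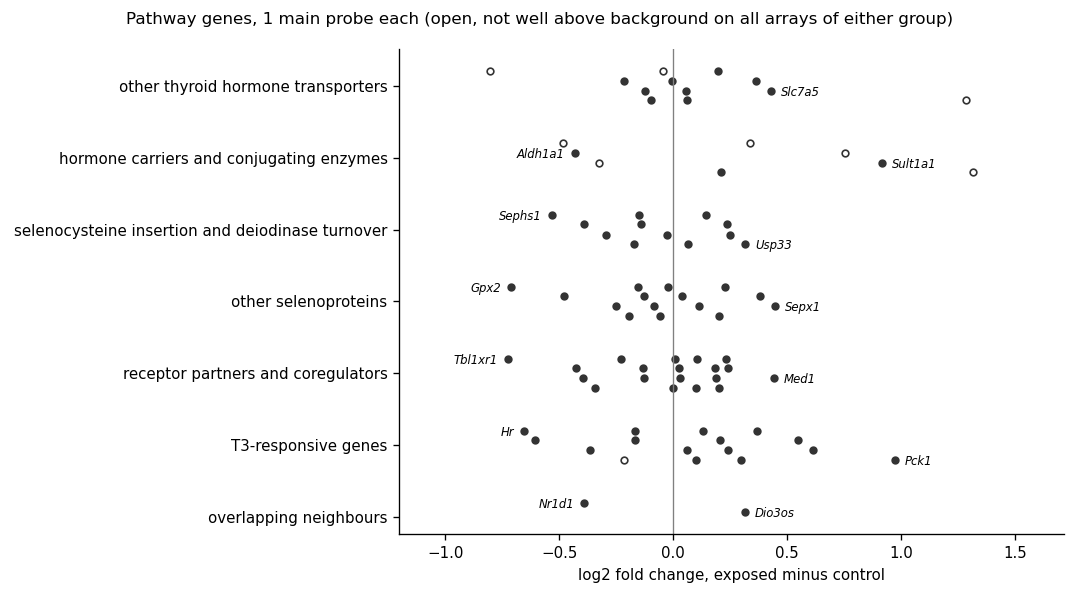
Log2 fold change (horizontal axis, exposed minus control) of the 84 pathway genes with a probe, in 7 lists (rows). Each circle is a gene, open where its probe was not well above background on all arrays of either group, and the largest rise and fall among the filled ones are named (for the transporters the rise alone); filled circles run from Tbl1xr1 at -0.72 to Pck1 at 0.97, and none passed the test.

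Genes whose pattern over the 8 arrays was nearest to that of each member were listed, by the root mean square difference between log2 signals centred on their means, among 14532 genes well above background on all arrays. Nearest to Dio1 were Ppp1r1b, a regulator of protein phosphatase 1 (difference 0.29), Slc26a10, an anion exchanger family gene (0.30), and Cx3cr1, the fractalkine receptor (0.31), whose own log2 fold changes were -1.95, -2.65 and -2.43. Nearest to Dio2 were Pde3b, a cyclic nucleotide phosphodiesterase (0.19), Gyk, glycerol kinase (0.22), and Dnaja1, a cochaperone of Hsp70 (0.27). For Crym they were Sec16b (0.24), Mgat5 (0.27) and Kcnj8 (0.27). Nearest to Thra were Bccip (0.12), Dgkz (0.13) and Bicc1 (0.13). The members with small changes lay closest to their neighbours: Slc16a10 to Cpeb1 (0.07), Dbn1 (0.07) and Tmem177 (0.08), and Thrb to Supt3h (0.12), Asb13 (0.12) and AI316807 (0.13). The measure is not scaled by spread, so a gene that varied little was bound to lie close to others that varied little. These are descriptions over 8 arrays that share the 2 groups, and Dio3 and Ttr were left out because they were not well above background on every array.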

How the data were processed

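Total RNA of 8 thyroids (4 exposed, 4 control) was labelled with Cy3 and hybridised to one-colour Agilent 8x60K mouse arrays. The authors deposited the scanner output, with each spot's intensity as given by Feature Extraction 10.7.3.1, and a table of log2 values, normalized between arrays by quantiles in limma per the methods. Set against the scanner output, the deposited log2 values lay within 0.0378 of median spot signals that were quantile-normalized without background subtraction.

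Here the background-subtracted intensity of 59305 mouse spots was log2-transformed, normalized by quantiles and averaged over the spots of each of 55681 probes. Exposed and control arrays were compared with lmFit and eBayes (limma 3.58.1, R 4.3.3), with Benjamini-Hochberg adjustment over all probes and a threshold of 0.05. No array file gave a batch other than position on the 1 slide. Differences between changes were compared by exact permutation (Python 3.11.15, numpy 2.4.6) and adjusted over 4 pairs. The t quantiles of the confidence intervals came from scipy 1.17.1. For list sums, normalized signals of the main probes were added on the linear scale. The procedure was tested on simulated arrays for the same comparison of 55681 probes, where it called 171 of 200 changed probes and 15 unchanged ones. The planted changes were larger than the main-probe change of every member but Dio1. They lay in probes brighter than those of Dio3 and Ttr. How often the procedure calls a probe with the change and signal of each member was not tested. Positions (mm9) and gene symbols come from the array files.

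Named genes were all 8 members, any pathway gene past the threshold, the largest rise and fall of each pathway list, Tg and Slc5a5 among thyrocyte genes, and the 3 genes of nearest pattern for each member well above background on all arrays. Some genes that the rule takes are not reported here. The members and the 17 lists (158 genes, from general knowledge) were chosen with earlier results of these data known. Alternatives were the deposited values, normexp (offset 50) or no correction for background, 75th percentile scaling, array weights, a variance trend, the mean over all probes of a gene, and leaving out dim probes, marked spots or each array. The number of arrays limits the precision.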

Additional observations from a re-analysis of the deposited data

How the results depend on the processing

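Against 435 probes that passed, array weights gave 959, a variance trend 744, leaving out dim probes 733, normexp correction 856, uncorrected signals 962 and the deposited values 955. Scaling to the 75th percentile gave 577 and moved the median log2 fold change of all probes from 0.01 to 0.16. Leaving out 1 array gave 100 to 481. Dio1 stayed lower under all 17 alternatives (-2.72 to -2.06), with adjusted p between 0.00411 and 0.0618. It passed under 13 of them and not under 4, each with 1 array left out (-2.63 to -2.30 over the 8 such fits). The Dio1 probe from base 301 passed with array weights only (-1.73, adjusted p = 0.0271). Thrb, at -0.04, was 0.0162 with normexp, 0.00514 without background correction and 0.00576 on the deposited values, and -0.28 to 0.17 with 1 array left out. The other members kept their direction and passed under none of their alternatives, with lowest adjusted p of 0.0768 (Dio2), 0.0577 (Dio3), 0.426 (Slc16a10), 0.0582 (Thra), 0.0886 (Crym) and 0.41 (Ttr). Dio1 minus Slc5a5 kept its direction under all 12 alternatives (0.84 to 1.20), Dio1 minus Dio2 likewise (-3.87 to -3.19) and Dio1 minus Dio3 (-3.54 to -2.66). Their p was at or near the smallest the assignments allow throughout, so it shows nothing of their stability. Thra minus Thrb was -0.75 to -0.38 with 1 array left out. No paired analysis was possible because the groups share no replicate numbers. Probes near background (Dio3, Ttr, Slc16a10 from base 1735) were limited by signal over background, and the causes of these dependences were not tested.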

Other observations

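The bile acid transporter Slc10a1, on the list of other hormone transporters, was read by a probe annotated with 4 RefSeq transcripts, and its log2 signal lay between 18.70 and 18.97 on all 8 arrays. Its other probe was well above background on 0 of 8 arrays, between 3.03 and 4.67. The probes disagreed, so no level of Slc10a1 was read, and the summed signal of that list was not used. The brighter probe still counts in the numbers of genes and the median given for the pathway. This gene was chosen after its values were seen.

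No member or named thyrocyte gene had a single array far from the others of its group by Dixon's test over 28 groups, of which chance would mark about 1.4.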
